A study of Mus musculus with 8 samples.

Results

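The transcription factor p53 and 9 of its target genes were followed in mouse embryonic stem cells (ESCs) grown under 4 culture conditions. The 10 genes were chosen by name: Trp53, which encodes p53, and Cdkn1a, Ccng1, Mdm2, Trp53inp1, Sesn1, Bbc3, Pmaip1, Bax and Fas. All 10 were among the 20278 genes listed in the data, and all 10 were among the 15287 genes that were kept for testing (2 or more libraries with 10 or more counts). p53 protein binding and p53 protein levels were not analysed here, so these genes are called targets from general knowledge and not from the data.

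All cells were the N33 ESC line, labelled C57BL/6 and given as C57BL/6J in the study's methods, and every medium contained leukemia inhibitory factor (LIF) at 1000 U/ml. In condition G the cells grew on gelatin with 20% fetal bovine serum and no feeder cells. In condition F they grew in the same percentage of serum on feeders, which are mouse embryonic fibroblasts (MEFs) whose division had been stopped with mitomycin C. Condition F2i was serum and feeders plus 2i, a pair of inhibitors that block Gsk3β (CHIR99021) and Mek (PD0325901). Condition NB2i was the serum-free medium N2B27 with 2i (3 µM CHIR99021 and 1 µM PD0325901) on a poly-L-ornithine and laminin coating, with neither feeders nor serum. No inhibitor concentration was stated for F2i. Cells grown on feeders had been separated from them by a difference in adherence, according to the sample labels. Each condition had 2 libraries, described as biological replicates, although nothing said how the cultures were kept apart. All results are from 1 ESC line. In culture F2i differed from F by 2i, but their libraries also differed in the level of fibroblast markers, given below. NB2i differed from F2i by serum, base medium, feeders and coating together. It differed from G by 2i, serum, base medium and coating, and from F by these and feeders. F2i differed from G by feeders and 2i. In each of these comparisons the parts of the factors in a difference cannot be told apart.

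In textbook accounts p53 is held at a low level by Mdm2, a ubiquitin ligase whose own gene p53 switches on, so that the pair forms a feedback loop. When DNA is damaged or the cell is stressed, p53 is stabilised and raises genes that halt the cell cycle, such as Cdkn1a (p21), and genes that start cell death through mitochondria, such as Bbc3 (Puma), Pmaip1 (Noxa) and Bax, or through a surface receptor, Fas. Mouse ESCs are known for abundant p53 and for a short G1 phase with little p21.

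The 8 libraries held between 20129641 and 20664488 estimated read counts each, and listed between 17114 and 18111 genes. Levels are given as FPKM, a read density scaled for transcript length and library size, and differences as log2 fold changes of the counts. These were tested by quasi-likelihood in edgeR, with p adjusted by the Benjamini-Hochberg method over the 15287 genes. A gene is said to have risen or fallen where its adjusted p was under 0.05. All 7 ESC markers fixed for the cells, among them Pou5f1, Sox2 and Nanog, were detected in every library, and their summed level lay between 3619 and 4406 FPKM. Single markers varied more than the sum. Mean Nanog was 204 FPKM in G and 473 in F2i, and mean Tdgf1 was 655.6 in G and 419.5 in NB2i. The summed level of 10 fibroblast markers (Col1a1, Col1a2, Col3a1, Dcn, Lum, Postn, Thy1, Pdgfrb, Fbn1 and Fstl1) was 33.6 to 33.7 FPKM in G, 237 to 245 in F, 582 to 594 in F2i and 18.5 to 19.6 in NB2i. All 10 were detected in both libraries of F and of F2i. Lum was at 0 in both G libraries, and Dcn, Lum and Postn were at 0 in both NB2i libraries. Of the 6 primitive endoderm markers, the summed level was 2.76 to 5.35 FPKM in G, F2i and NB2i and 11.6 to 12.2 in F. Of the 5 trophoblast markers, it was 19.73 to 20.15 FPKM in G, 12.29 to 12.94 in F, 5.14 to 5.41 in F2i and 18.67 to 20.39 in NB2i. Most of this sum was Krt7 in every condition, with a mean of 13.04 in G and 19.2 in NB2i. Mean Hand1 was 5.615 in G and 0.055 in NB2i. In bulk RNA, more or fewer cells of a type and more or less RNA per cell cannot be told apart, for these markers or for any gene below.

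The promoters are shown because these genes are grouped by what p53 does at their DNA. The RefSeq table (GRCm38.p6, the mm10 build) held 12 promoters for 8 members, each covering 250 bases before to 50 after the start site. A p53 half-site, a palindromic stretch of 10 bases searched by exact match to its consensus so that both strands give the same hits, was found in 6 of the 12 promoters, belonging to 6 of the 8 members. By comparison, 2745 of all 32851 promoters in the table (8.4%) held one. A full site, meaning 2 half-sites with at most 13 bases between them, was found in 1 member promoter, the upstream Cdkn1a promoter, and in 24 of all promoters (0.07%). For 28 of the 34 other p53 targets there were 34 promoters, and 9 of these promoters held a half-site. A match describes the letters only, and sites outside these windows, also those within introns, were not searched for. The 250 bases upstream of the start of Cdkn1a, which rose, of Mdm2, which rose and then fell, and of Trp53, whose highest condition mean was 1.08 times its lowest, are written 5′ to 3′ on the strand of the gene, with the half-sites in capitals.
Cdkn1a, chr17:29090729-29090978 (+ strand): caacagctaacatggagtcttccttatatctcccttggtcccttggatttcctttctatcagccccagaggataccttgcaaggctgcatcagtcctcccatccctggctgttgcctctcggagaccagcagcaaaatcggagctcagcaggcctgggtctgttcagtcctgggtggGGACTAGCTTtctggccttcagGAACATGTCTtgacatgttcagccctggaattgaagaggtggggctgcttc
Mdm2, chr10:117710759-117711008 (- strand): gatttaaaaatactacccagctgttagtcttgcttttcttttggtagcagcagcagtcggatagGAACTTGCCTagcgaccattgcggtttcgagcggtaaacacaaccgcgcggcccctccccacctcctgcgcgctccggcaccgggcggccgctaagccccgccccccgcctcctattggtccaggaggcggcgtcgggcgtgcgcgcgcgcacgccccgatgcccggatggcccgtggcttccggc
Trp53, chr11:69580109-69580358 (+ strand): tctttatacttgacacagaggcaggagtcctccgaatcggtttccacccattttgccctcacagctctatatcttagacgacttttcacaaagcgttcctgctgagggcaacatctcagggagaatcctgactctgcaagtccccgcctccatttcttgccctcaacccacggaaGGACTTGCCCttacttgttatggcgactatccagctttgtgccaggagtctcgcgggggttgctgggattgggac

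The Cdkn1a half-sites began 73 and 51 bases before the upstream start site, that of Mdm2 186 bases before and that of Trp53 75 bases before. The second promoter listed for Cdkn1a held none. Exact match leaves near matches unmarked, also next to a marked half-site, so the marked Cdkn1a pair need not be the stretch that p53 binds. The other 3 members with a single half-site are shown with 20 bases on each side. They began 185 bases before the start site in Ccng1, 173 bases before the second start site listed for Sesn1, and 201 bases before that of Bax. The 3 promoters of Bbc3, 2 of which overlap, and the 1 promoter of Fas held none of these letters in the window.
Ccng1, half-site at chr11:40755462-40755471 (- strand): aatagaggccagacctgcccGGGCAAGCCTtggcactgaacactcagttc
Sesn1, half-site at chr10:41887266-41887275 (+ strand): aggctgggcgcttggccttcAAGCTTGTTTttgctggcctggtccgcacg
Bax, half-site at chr7:45467090-45467099 (- strand): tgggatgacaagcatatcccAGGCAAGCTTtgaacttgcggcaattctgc

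Trp53 (gene 22059, chr11:69580359-69591873, + strand) was among the most strongly expressed of the members, with 218 and 212 FPKM in G, 225 and 223 in F, 230.2 and 233 in F2i, and 229 and 219 in NB2i. The highest condition mean was 1.08 times the lowest, and in the order G, NB2i, F, F2i only the first pair of neighbours differed past the threshold. In NB2i against G the difference was 0.12 (SE 0.041, 95% interval 0.037 to 0.209, adjusted p = 0.011 by edgeR), and in F2i against G it was 0.17 (SE 0.041, adjusted p = 0.0013 by edgeR). The difference was 0.086 in F against G (95% interval -6.5e-05 to 0.172) and 0.081 in F2i against F (-0.0050 to 0.167), neither past the threshold. The call in NB2i against G was lost under 5 of 12 other settings: in limma on FPKM with either pseudocount (adjusted p = 0.27), with only the conditions compared in the edgeR fit (adjusted p = 0.051), and without G replicate 2 (edgeR adjusted p = 0.052) or NB2i replicate 1 (edgeR adjusted p = 0.12). The 3 genes whose log2 profile over the 8 libraries lay closest to Trp53 were Pitpna, Slc38a4 and Snx12, with root mean square differences of 0.023, 0.028 and 0.030.

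**Figure D1:**
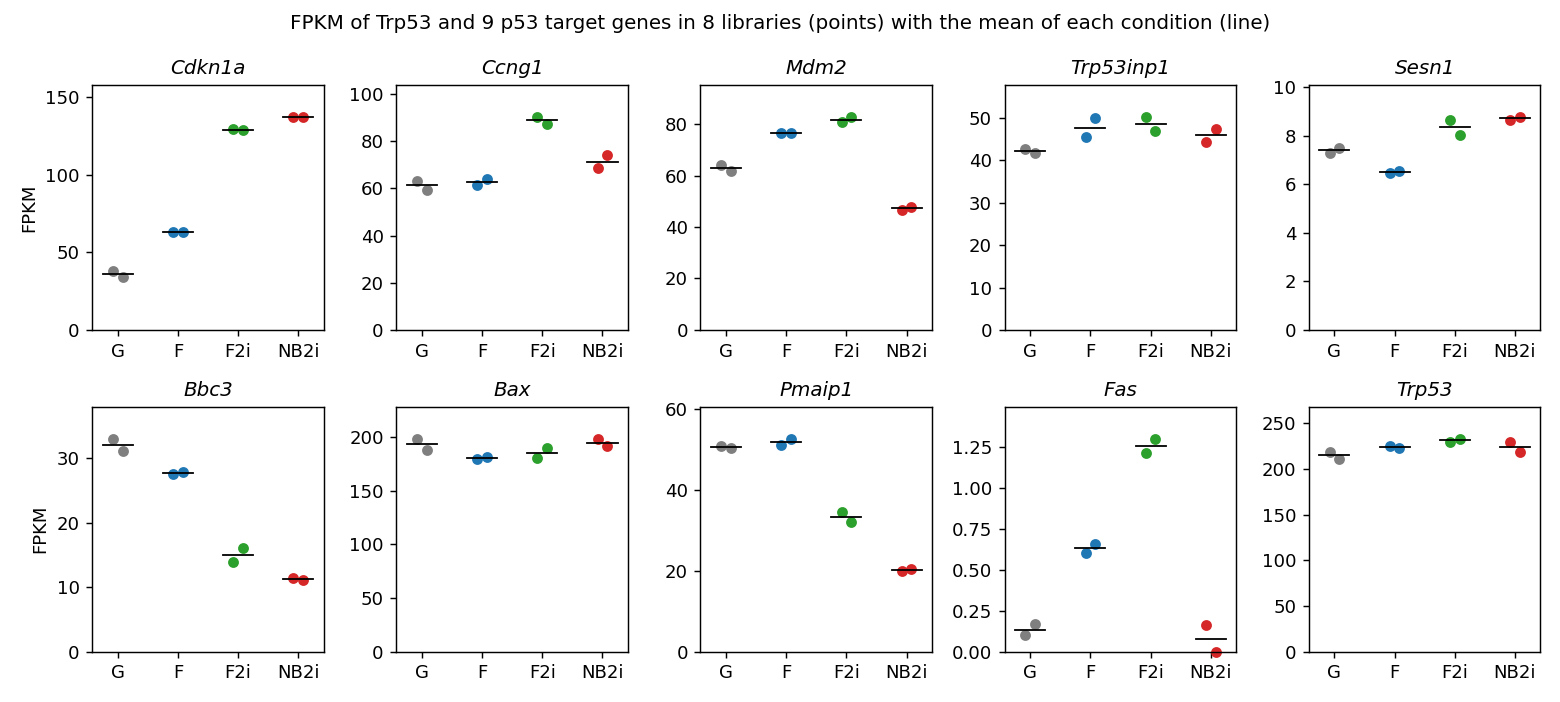
FPKM (vertical axes, each from 0) of Trp53 and the 9 targets in the 2 libraries of each condition (points) with the mean of the 2 (line). Cdkn1a stepped up from 36.0 in G to 137 in NB2i, Bbc3 and Pmaip1 were lowest in NB2i at 11.3 and 20.3, and Trp53 and Bax stayed within 1.08 times of their lowest condition mean.

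Cdkn1a (gene 12575, chr17:29090976-29100727, + strand) encodes p21, the inhibitor of cyclin-dependent kinases through which p53 halts the cell cycle. It measured 38.0 and 34.1 FPKM in G, 63.1 and 63.5 in F, 129 and 129 in F2i, and 137 and 137 in NB2i. The libraries of the 4 conditions did not overlap, and the level rose from G to F and again from F to F2i. The log2 difference was 0.83 (SE 0.050, adjusted p = 1.4e-11) for F against G and 1.07 (SE 0.045, adjusted p = 1.5e-14) for F2i against F. NB2i was 0.094 above F2i (95% interval 0.0045 to 0.184), which did not pass the threshold (adjusted p = 0.062). Against G, NB2i was 3.99-fold higher (log2 2.00, SE 0.048, adjusted p = 2.2e-19). The summed fibroblast markers rose with Cdkn1a from G to F to F2i (33.6 to 33.7, 237 to 245 and 582 to 594 FPKM), and were lowest in NB2i (18.5 to 19.6 FPKM), where Cdkn1a was highest. Their part in the Cdkn1a differences was not tested. The annotation (GENCODE vM21) placed 273 exon bases of Cdkn1a (7.7%) under AC167363.2 on the opposite strand, and whether counting used strand was not stated.

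The 3 genes whose profile over the 8 libraries lay closest to Cdkn1a were Cpt1a, which encodes the enzyme that admits fatty acids to mitochondria, Fn1 (fibronectin) and Tcl1, an Akt coactivator. Their root mean square log2 differences from Cdkn1a were 0.079, 0.090 and 0.108. Cpt1a went from 14.3 and 14.0 FPKM in G to 24.4 and 24.4 in F, 45.2 and 46.5 in F2i, and 54.7 and 56.7 in NB2i. Tcl1, by contrast, was slightly lower in NB2i (61.7 and 63.3 FPKM) than in F2i (68.0 and 68.4).

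Ccng1 (gene 12450, chr11:40748552-40755311, - strand) encodes cyclin G1, a long-known p53 target that recruits a phosphatase to Mdm2. It measured 63.2 and 59.5 FPKM in G, 61.5 and 64.0 in F, 90.3 and 87.4 in F2i, and 68.5 and 74.0 in NB2i. G and F overlapped (difference 0.056, 95% interval -0.041 to 0.152, not past the threshold), F2i was highest, and NB2i lay between. The rise from F to F2i was 0.54 (SE 0.046, adjusted p = 1.7e-09), and NB2i then fell by 0.31 from F2i (SE 0.045, adjusted p = 3.8e-06), leaving it 0.28 above G (adjusted p = 1.2e-05 by edgeR).

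Mdm2 (gene 17246, chr10:117688875-117710758, - strand), the ubiquitin ligase of the feedback loop, measured 64.0 and 61.9 FPKM in G, 76.6 and 76.6 in F, 80.7 and 82.8 in F2i, and 46.7 and 47.8 in NB2i. The conditions did not overlap, and the order was NB2i, G, F, F2i, with each neighbour past the threshold. Mdm2 rose by 0.30 from G to F (SE 0.041, adjusted p = 3.6e-06) and by 0.13 from F to F2i (SE 0.040, adjusted p = 0.0080). The second of these was lost without F2i replicate 2 (edgeR adjusted p = 0.073) and in limma on FPKM (adjusted p = 0.11 and 0.12). It fell by 0.78 in NB2i against F2i (1.72-fold lower, SE 0.041, adjusted p = 4.3e-13) and was 0.34 below G (SE 0.042, adjusted p = 2e-07). In NB2i against G, then, Cdkn1a was higher and Mdm2 lower. The order of Mdm2 over the 4 conditions was also the order of the summed fibroblast markers, and their part in it was not tested. Neither G nor NB2i had feeders. In both, most of the sum was Fstl1, with 24.93 and 25.27 FPKM in G and 17.35 and 16.65 in NB2i.

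Trp53inp1 (gene 60599, chr4:11156431-11174379, + strand) encodes a stress protein that works with p53 in cell death and autophagy. It measured 42.8 and 41.8 FPKM in G, 45.4 and 49.9 in F, 50.3 and 46.9 in F2i, and 44.4 and 47.5 in NB2i. The 2 G libraries were the lowest, and those of the other 3 conditions overlapped one another. F exceeded G by 0.20 (SE 0.050, adjusted p = 0.0034) and NB2i exceeded G by 0.19 (SE 0.050, adjusted p = 0.0020). The first was not called without F replicate 2 (edgeR adjusted p = 0.12), and neither was called in limma on FPKM (adjusted p = 0.092 to 0.18).

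Sesn1 (gene 140742, chr10:41809935-41908424, + strand), a sestrin that restrains mTORC1 signalling, was low, with 7.31 and 7.48 FPKM in G, 6.46 and 6.54 in F, 8.66 and 8.05 in F2i, and 8.65 and 8.78 in NB2i. F was lowest, and F2i and NB2i overlapped. It rose by 0.44 from F to F2i (SE 0.072, adjusted p = 2.3e-05), and NB2i was 0.32 above G (SE 0.071, adjusted p = 0.00039). F against G was -0.10 in counts (adjusted p = 0.29 by edgeR) but -0.16 and -0.18 on the log2(FPKM + 1) and log2(FPKM + 0.1) scales, where limma called it (adjusted p = 0.037 and 0.040). The mean transcript length that the authors' counting assigned to Sesn1 was 2788 to 2824 bases in G, 2897 to 2959 in F, 3002 to 3019 in F2i and 2817 to 2860 in NB2i, and FPKM divides by this length while the counts do not.

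Among the death genes, Bbc3 (gene 170770, chr7:16308393-16318205, + strand), which encodes Puma, a BH3-only protein that frees Bax and Bak, measured 33.1 and 31.2 FPKM in G, 27.5 and 27.9 in F, 13.9 and 16.1 in F2i, and 11.5 and 11.1 in NB2i. The conditions did not overlap and the level was lower at each step. It fell by 0.85 from F to F2i (1.80-fold lower, SE 0.068, adjusted p = 7.8e-10), and by a further 0.40 from F2i to NB2i (SE 0.077, adjusted p = 0.00011). Against G, NB2i was 2.71-fold lower (-1.44, SE 0.070, adjusted p = 4.8e-14). The step from G to F was small (-0.19, SE 0.062, adjusted p = 0.020) and was not called by DESeq2 (adjusted p = 0.069), in limma on FPKM (adjusted p = 0.066 and 0.098), or in edgeR without G replicate 1 (adjusted p = 0.14) or F replicate 1 (adjusted p = 0.089).

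Pmaip1 (gene 58801, chr18:66458533-66465565, + strand) encodes Noxa, a BH3-only protein that binds Mcl1. It measured 50.8 and 50.3 FPKM in G, 51.1 and 52.7 in F, 34.6 and 32.2 in F2i, and 20.1 and 20.5 in NB2i. G and F were close (difference 0.061, 95% interval -0.031 to 0.153, adjusted p = 0.29 by edgeR), and F2i and then NB2i lay below both. Pmaip1 fell by 0.60 from F to F2i (SE 0.046, adjusted p = 3.5e-10) and by 0.71 from F2i to NB2i (SE 0.050, adjusted p = 6e-11). Against F, NB2i was 2.48-fold lower (-1.31, SE 0.049, adjusted p = 4.1e-16). From F to F2i, then, Bbc3 and Pmaip1 fell while Cdkn1a rose. The FPKM of Cdkn1a per FPKM of Pmaip1 was 0.747 and 0.678 in the G libraries, 1.23 and 1.20 in F, 3.74 and 4.01 in F2i, and 6.85 and 6.71 in NB2i.

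Bax (gene 12028, chr7:45461697-45466898, - strand), the pore-forming effector of mitochondrial death, measured 198 and 188 FPKM in G, 179 and 181 in F, 180.4 and 189 in F2i, and 198 and 191 in NB2i, with overlap between several conditions. The one difference past the threshold was NB2i against F (0.15, SE 0.045, adjusted p = 0.0041), which limma on FPKM did not call (adjusted p = 0.092 and 0.11). For NB2i against G it was 0.080 (95% interval -0.013 to 0.173, adjusted p = 0.11 by edgeR). Bax shared 192 exon bases (12.2%) with Gm45808 on the same strand, so part of its count could belong to either.

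Fas (gene 14102, chr19:34290666-34327772, + strand), the death receptor, was at the edge of detection. Its estimated counts were 3 and 5 in G, 18 and 20 in F, 36 and 39 in F2i, and 5 and 0 in NB2i, or 0.10 and 0.17, 0.60 and 0.66, 1.21 and 1.30, and 0.16 and 0 FPKM. Both feeder conditions lay above both feeder-free conditions with no overlap. Fas was higher in F than in G (log2 2.24, SE 0.55, adjusted p = 0.0025), higher in F2i than in F (1.03, SE 0.34, adjusted p = 0.015) and lower in NB2i than in F2i (-3.86, SE 0.53, adjusted p = 1.6e-06). The last value was -2.89 without NB2i replicate 2 and -1.07 on the log2(FPKM + 1) scale, with the call kept in both. Without NB2i replicate 1 the remaining NB2i library held 0 counts, and the fitted value (-8.28) depends on the prior count and is no size. F2i against F was not called by DESeq2 (adjusted p = 0.13), in limma on log2(FPKM + 0.1) (adjusted p = 0.14), or in edgeR without F replicate 1 (adjusted p = 0.068) or F2i replicate 2 (adjusted p = 0.066). NB2i against G could not be resolved (-0.60, 95% interval -2.40 to 1.20). The summed fibroblast markers were likewise higher in F than in G, higher again in F2i and lowest in NB2i, and their part in the Fas difference was not tested. 

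**Figure D2:**
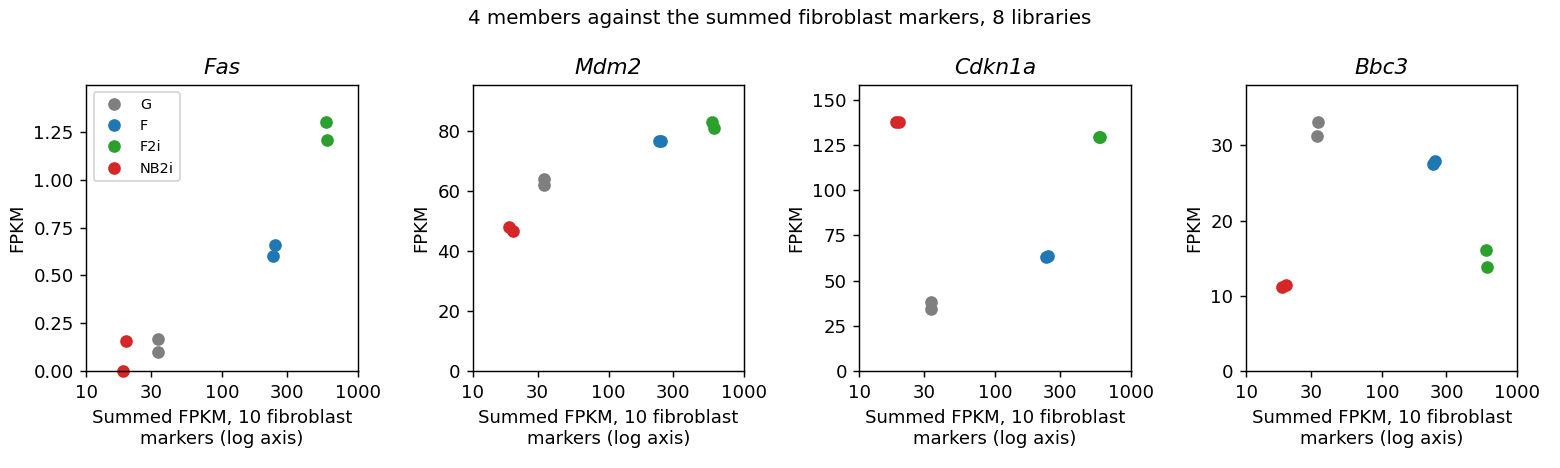
FPKM of Fas, Mdm2, Cdkn1a and Bbc3 (vertical axes, linear) against the summed FPKM of 10 fibroblast markers (horizontal axis, log scale) in each of the 8 libraries, coloured by condition. Fas and Mdm2 were highest in the F2i libraries, where the markers summed to 582 to 594, whereas Cdkn1a was high and Bbc3 low both there and in the NB2i libraries, where they summed to 18.5 to 19.6.

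Taking the comparisons one at a time, the count of members that changed can be read against the share of all genes that changed. With feeders against without (F against G), 4 members rose (Cdkn1a, Mdm2, Trp53inp1, Fas) and 1 fell (Bbc3), while 40.2% of the 15287 genes changed (21.7% higher, 18.5% lower). Only Fas passed 2-fold as well, upward, against 7.24% of all genes (5.59% higher, 1.65% lower). The median over the 10 members was 0.073, beside 2.66e-05 over all genes.

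When 2i was added on feeders (F2i against F), 5 members rose (Cdkn1a, Ccng1, Mdm2, Sesn1, Fas) and 2 fell (Bbc3, Pmaip1), while 54.8% of all genes changed (27.3% higher, 27.4% lower). Cdkn1a and Fas rose at least 2-fold, against 13.4% of all genes past 2-fold in either direction (6.44% higher, 7% lower). The members' median was 0.11 and that of all genes -0.0028. The summed fibroblast markers were also higher in F2i (582 to 594 FPKM) than in F (237 to 245), and their part here was not tested.

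When NB2i was set against F2i, 5 members fell (Ccng1, Mdm2, Bbc3, Pmaip1, Fas), while 64.1% of all genes changed (33.3% higher, 30.8% lower). In this comparison 0 members rose by edgeR's adjusted p or by DESeq2's, and 1, Cdkn1a, was higher at an unadjusted p under 0.05 in edgeR and 0 in DESeq2. Only Fas fell 2-fold or more, against 19.3% of all genes past 2-fold (6.01% higher, 13.3% lower). The members' median was -0.19, beside 0.018 over all genes.

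Between NB2i and F, 4 members were higher (Cdkn1a, Ccng1, Sesn1, Bax) and 4 lower (Mdm2, Bbc3, Pmaip1, Fas), while 73.5% of all genes changed (36.3% higher, 37.1% lower). Past 2-fold were Cdkn1a upward and Bbc3, Pmaip1 and Fas downward, against 27.6% of all genes (10% higher, 17.6% lower). Cdkn1a was 1.16 higher, and Mdm2 fell by 0.65 and Bbc3 by 1.25 relative to F. Against G, 5 members were higher in NB2i (Cdkn1a, Ccng1, Trp53inp1, Sesn1, Trp53) and 3 lower (Mdm2, Bbc3, Pmaip1), while 72.4% of all genes changed (36.9% higher, 35.4% lower), and 1 member upward and 2 downward passed 2-fold, against 27.2% of all genes (11.1% higher, 16.1% lower). F2i against G, used to order the levels, gave 7 members higher and 2 lower, while 67.8% of all genes changed (34.5% higher, 33.3% lower). There Cdkn1a and Fas were at least 2-fold higher and Bbc3 at least 2-fold lower, against 21.5% of all genes past 2-fold (11.7% higher, 9.82% lower). The comparisons share libraries, so their counts are not separate evidence. The share of members called, 50% to 90%, is to be read beside the 40.2% to 73.5% of all genes called. In NB2i against F2i the members' share, 50%, was below the 64.1% of all genes. All genes were not matched to the members in level, whose median was 56.6 FPKM.

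**Figure D3:**
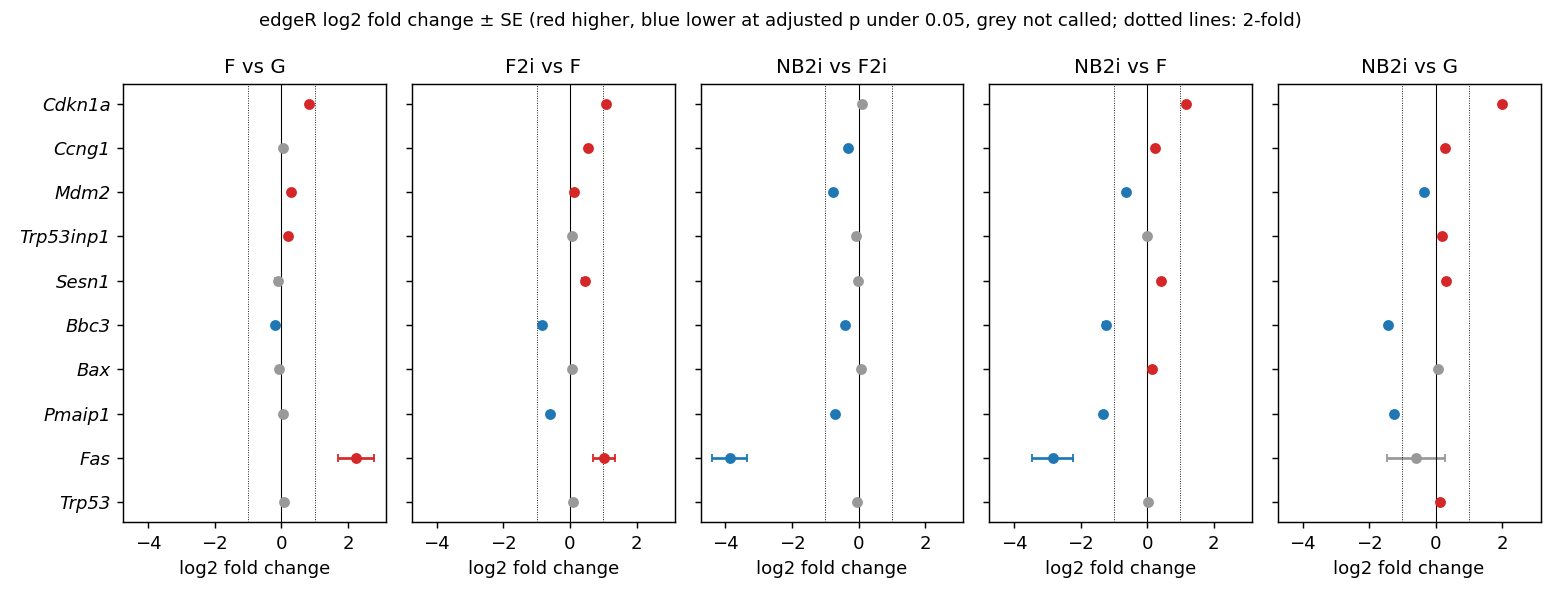
edgeR log2 fold change with its SE (horizontal axis) of the 10 members in 5 comparisons, with red for higher, blue for lower and grey for not called. Cdkn1a was higher in 4 of the 5 comparisons, Bbc3 lower in 5 and Pmaip1 lower in 4, and Mdm2 turned from higher in F and F2i to lower in NB2i.

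The 34 other p53 targets were grouped by role and, like the members, moved both ways. In F against G, 7 rose and 14 fell, among them 7 of the 13 metabolism and repair genes, with a median of -0.12. Of all genes, 21.7% rose and 18.5% fell there. In F2i against F, 13 rose and 12 fell (median 0.048), beside 27.3% and 27.4% of all genes. In NB2i against F2i, 13 rose and 12 fell (median 0.040), beside 33.3% and 30.8% of all genes. In NB2i against F, 15 rose and 15 fell (median 0.061, beside -0.0072 over all genes). The shares of all genes there were 36.3% higher and 37.1% lower. In NB2i against G, 13 rose and 16 fell, with a median of -0.049 beside 0.0099 over all genes. There, 36.9% of all genes were higher and 35.4% lower.

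A list labelled arrest and checkpoint held Btg2, Gtse1, Sfn, Gadd45a, Plk2, Plk3 and Psrc1. It did not hold Cdkn1a, and the label is not a statement on the role of each gene. The list was lower in NB2i than in F for 7 of 7 genes, and lower than in G for 6 of 7. The medians were -0.58 and -0.51, while 37.1% and 35.4% of all genes were lower in these comparisons. Gadd45a, which binds the repair and cell-cycle protein PCNA, measured 74.1 and 62.4 FPKM in G, 77.1 and 71.5 in F, 19.5 and 20.1 in F2i, and 18.6 and 19.8 in NB2i. It fell by 1.87 from F to F2i (SE 0.074, adjusted p = 5.3e-15), which was the same step at which Cdkn1a rose by 1.07. Plk3, a checkpoint kinase, was 13.3 and 13.6 FPKM in G, 27.5 and 24.4 in F, 9.95 and 10.4 in F2i, and 5.03 and 4.97 in NB2i, and fell by 1.31 from F to F2i (SE 0.068, adjusted p = 4.6e-13). Plk2 rose to 26.3 and 27.7 FPKM in F2i and fell by 1.44 in NB2i (SE 0.058, adjusted p = 4.5e-15).

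Among the 13 metabolism and repair targets, 8 rose and 5 fell in NB2i against G, with a median of 0.23, and 5 of the 8 passed 2-fold. Of all genes, 36.9% rose and 35.4% fell there, and 11.1% rose at least 2-fold. Rrm2b, the p53-inducible subunit of ribonucleotide reductase, measured 3.86 and 4.21 FPKM in G, 3.25 and 3.26 in F, 5.39 and 5.65 in F2i, and 15.7 and 15.3 in NB2i, a rise of 2.01 against G (SE 0.067, adjusted p = 5.1e-17). Pank1, which makes coenzyme A, was 1.84 and 1.68, 1.47 and 1.63, 3.21 and 2.99, and 6.70 and 6.36 FPKM in the same order, a rise of 1.96 against G (SE 0.076, adjusted p = 7.7e-16). Of the 9 other death targets, 4 rose and 3 fell in NB2i against G (36.9% and 35.4% of all genes), with a median of 0.0093. The gene with the largest fall there was Perp, a desmosome protein, from 24.85 and 20.96 FPKM in G to 12.6 and 13.7 in F, 8.93 and 9.03 in F2i and 4.10 and 4.95 in NB2i (-2.27, SE 0.097, adjusted p = 4.9e-15). Of the 5 feedback targets, 1 rose and 2 fell in NB2i against G (36.9% and 35.4% of all genes), with a median of -0.084.

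**Figure D4:**
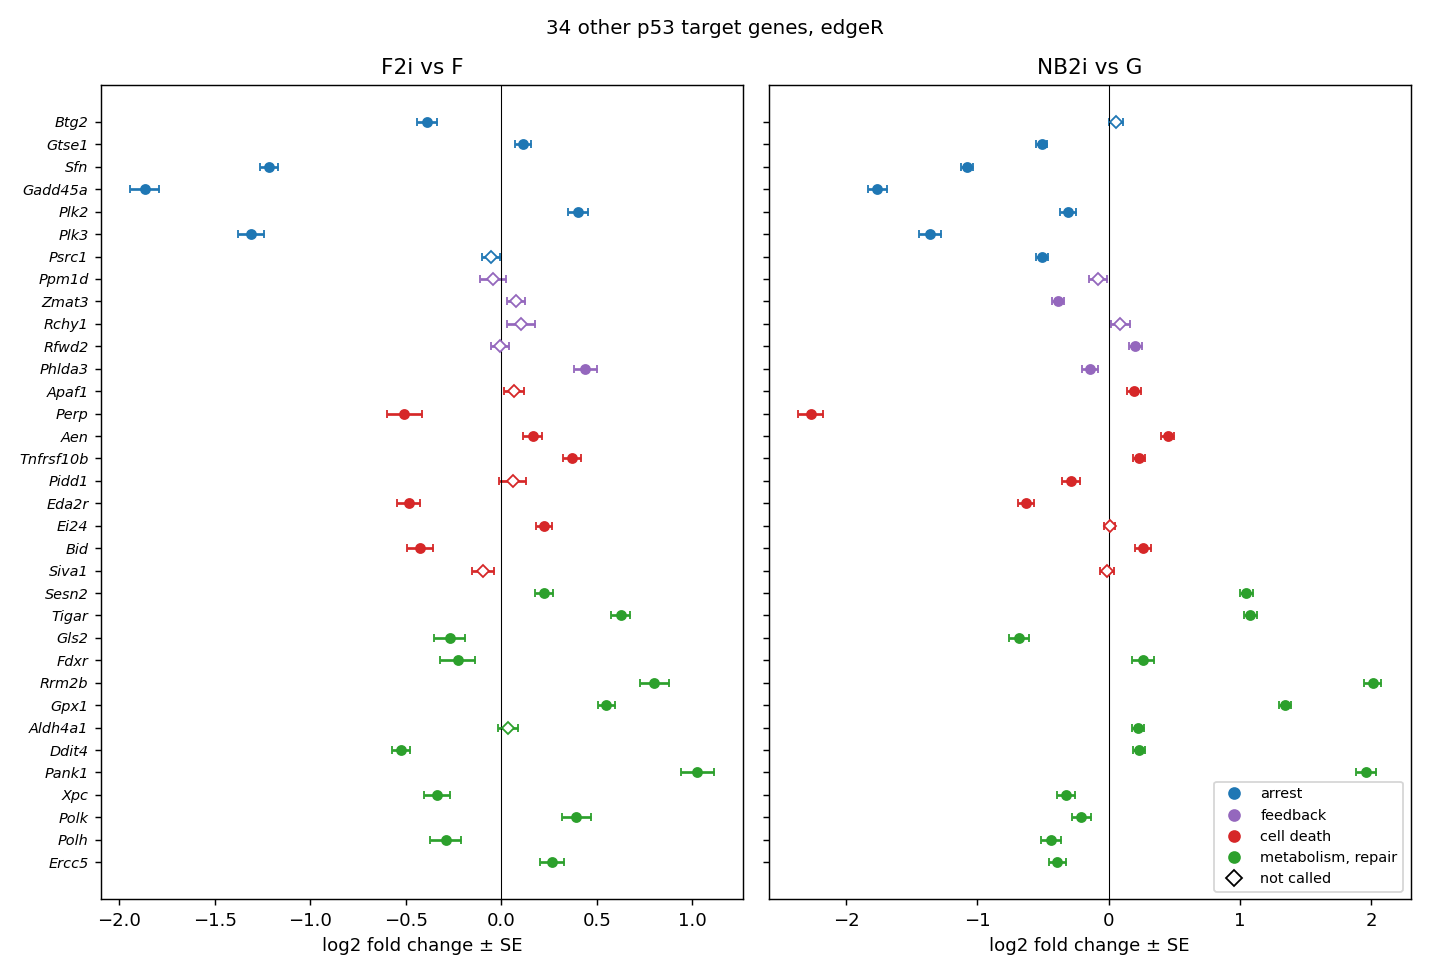
edgeR log2 fold change with its SE (horizontal axis) of 34 other p53 targets in F2i against F and NB2i against G, coloured by role, with open diamonds for genes not called. Genes of the list labelled arrest lay mostly below 0 and Rrm2b and Pank1 furthest above 0 in NB2i against G.

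Of 15 regulators that act on p53 (kinases, ubiquitin enzymes and cofactors), 5 rose and 6 fell in NB2i against G, with a median of -0.046. The shares of all genes there were 36.9% higher and 35.4% lower. While 27.2% of all genes passed 2-fold, of the 15 regulators only Cdkn2a did. This locus encodes p16Ink4a and p19Arf, of which Arf restrains Mdm2, and gene-level counts do not separate them. It measured 8.21 and 7.81 FPKM in G, 6.83 and 7.52 in F, 10.2 and 10.6 in F2i, and 34.7 and 36.3 in NB2i. The rise in NB2i was 1.77 against F2i (SE 0.081, adjusted p = 3.7e-14) and 2.21 against G (SE 0.085, adjusted p = 7.5e-16). Mdm4, the relative of Mdm2 that also restrains p53, measured 52.2 and 48.8 FPKM in G, 37.8 and 36.7 in F, 39.7 and 35.7 in F2i, and 53.04 and 54.26 in NB2i.

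Of 7 relatives of the members, 6 were tested (Trp63 was not), and 2 rose and 3 fell in NB2i against G, with a median of -0.26. The shares of all genes there were 36.9% higher and 35.4% lower. Cdkn1c (p57), a kinase inhibitor of the same family as p21, measured 21.3 and 22.2 FPKM in G, 12.6 and 13.2 in F, 2.57 and 2.91 in F2i, and 2.05 and 1.97 in NB2i. It fell by 2.18 from F to F2i (SE 0.095, adjusted p = 2.4e-14) and was 10.8-fold apart between its highest and lowest condition means (-3.36 on the log2 scale for NB2i against G, SE 0.094, adjusted p = 2.6e-18). Cdkn1b (p27) was 15.9 and 16.2 FPKM in G and 27.8 and 28.2 in NB2i.

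Of 11 other Bcl-2 family genes, 3 rose and 5 fell in NB2i against G (36.9% and 35.4% of all genes), with a median of -0.088. Bcl2l11 (Bim), a BH3-only gene not usually counted as a p53 target, went from 12.9 and 13.3 FPKM in G to 10.7 and 9.90 in F, 4.71 and 4.0 in F2i, and 2.26 and 2.20 in NB2i (-2.52 for NB2i against G, SE 0.076, adjusted p = 1.1e-17). Bok was 13.7 and 12.3 FPKM in G and 2.63 and 2.36 in NB2i (-2.31, SE 0.11, adjusted p = 3.9e-14). Mcl1, the survival protein that Noxa binds, was 177 and 168 FPKM in G, 221 and 218 in F, 185 and 178 in F2i, and 80.8 and 83.1 in NB2i, a difference from F2i of -1.14 (SE 0.042, adjusted p = 1e-15). Hrk rose in NB2i, to 2.53 and 2.45 FPKM from 0.82 and 0.80 in G (1.68, SE 0.11, adjusted p = 1.4e-11).

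In textbook accounts p21 lowers mitotic genes through the DREAM repressor complex, and its part in the values here was not tested. Of 12 mitotic genes, 10 were lower in NB2i than in G and 1 was higher, with a median of -0.41. Of all genes, 35.4% were lower and 36.9% higher there. Cdc20, the activator of the anaphase-promoting complex, measured 203 and 209 FPKM in G, 176 and 174 in F, 114 and 118 in F2i, and 94.9 and 90.9 in NB2i, a difference from G of -1.08 (SE 0.043, adjusted p = 1.2e-15). In F2i against F, 8 of the 12 fell, while 27.4% of all genes fell. In NB2i against F2i, 7 fell and 1 rose, beside 30.8% and 33.3% of all genes. Cdkn1a was 0.094 higher in that comparison (95% interval 0.0045 to 0.184), which did not pass the threshold (adjusted p = 0.062 by edgeR). In F against G, 6 fell and 0 rose, beside 18.5% and 21.7% of all genes. In NB2i against F, 10 were lower and 1 higher, beside 37.1% and 36.3% of all genes.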

How the data were processed

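Poly-A RNA had been sequenced by the authors on a BGISEQ-500 (single-end reads), mapped to mm10 with Bowtie2 and assigned to RefSeq transcripts with RSEM; versions and the use of strand were not given in the sources used here. The deposited values were RSEM's expected counts per gene, not normalized, and FPKM computed by the authors. A gene missing from a library's file was taken as 0. Of the listed expected counts, 29.8% were not whole, and they were rounded.

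Counts of all 8 libraries were fitted in 1 edgeR (4.0.16, R 4.3.3) quasi-likelihood model with TMM scaling, which took genes that reached 10 counts in 2 or more libraries, with Benjamini-Hochberg adjusted p. The biological coefficient of variation was 3.254% with 4 residual degrees of freedom. With 2 libraries against 2 an exact permutation test cannot give p below 0.333, so p-values rest on this model and on spread that may be partly technical. DESeq2 1.42.0 and limma 3.58.1, the latter on log2(FPKM + 1) and log2(FPKM + 0.1) for genes with at least 0.5 FPKM in at least 2 libraries, were alternatives, as were DESeq2 size factors, no filter, 10 counts in every library, only the conditions compared, a replicate block, and leaving out each library. Before use, the fit was tested on simulated data. Libraries of a condition differed by more than counting noise (chi-square per degree of freedom 1.84 to 3.55), so none was a repeat deposit of another; this does not show separate cultures. Replicate numbers do not pair libraries: deviations of same-numbered libraries correlated between -0.072 and 0.060 over 10542 genes.

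The 10 members and the other gene lists were chosen with earlier results of these data known. From each other list, up to 2 genes with the largest rise and fall past adjusted p 0.05 and 2-fold, with at least 1 FPKM in the higher condition, could be named in each comparison, and beside Cdkn1a and Trp53 the 3 genes of closest profile. Mdm4 and Cdkn1b were chosen after their values were seen. Positions are from GENCODE vM21, and promoters from RefSeq.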

Additional observations from a re-analysis of the deposited data

How the results depend on the processing

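Of 604 member fold changes refitted under other settings, 565 kept their direction and their side of the threshold, 24 lost the call, 6 gained one and 9 changed sign, 0 of which had been called. Of 120 counts of members refitted, 113 stayed within 1.5 times. The members lower in F against G numbered 0 instead of 1 by DESeq2 (1 at an unadjusted p under 0.05), without G replicate 1 (0 unadjusted) and without F replicate 1 (1 unadjusted), ranging from 0 to 1 over left-out libraries, since Bbc3 was lost. The members higher in F2i against F numbered 3 instead of 5 in limma on log2(FPKM + 0.1) and 3 without F2i replicate 2, and those higher in NB2i against G 3 instead of 5 in limma with either pseudocount. The causes were not tested. Signs that changed were all near 0 or on few counts: Trp53inp1 without F replicate 1 (-0.0037 in F2i against F), without F replicate 2 (0.071) and without NB2i replicate 1 (0.048, both NB2i against F); Sesn1 in NB2i against F2i in limma (0.055 and 0.061) and without F2i replicate 1 (0.025); Trp53 in NB2i against F in limma (-0.0012 with either pseudocount); and Fas in NB2i against G without NB2i replicate 2 (0.38).

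Fas rested on at most 39 counts in a library. Without NB2i replicate 1 the remaining NB2i library held 0 counts, so its fitted fold change (-5.01 against G, adjusted p = 0.025 by edgeR) depends on the prior count and is no size. Over left-out libraries, Trp53inp1 ranged from -0.0037 to 0.15 in F2i against F and from -0.078 to 0.071 in NB2i against F, Sesn1 in NB2i against F2i from -0.067 to 0.025, and Fas from -5.01 to 0.38 in NB2i against G, from -8.28 to -2.89 in NB2i against F2i and from -7.24 to -1.86 in NB2i against F, the lowest value of each being the one that depends on the prior count. A replicate block changed no count of members: 4 higher and 1 lower in F against G, 5 and 2 in F2i against F, 0 and 5 in NB2i against F2i, 4 and 4 in NB2i against F, and 5 and 3 in NB2i against G, and for Cdkn1a in NB2i against G the value with the block was 2.00. Leaving out 1 library leaves a condition with a lone library, assumed to vary like the others. Across settings the median of all genes stayed within 0.04 of 0 on the log2 scale. With 10 counts required in every library, Fas could not be tested. The number of all genes past 2-fold fell by more than 1.5 times where that filter tested fewer genes (393 instead of 1107 in F against G, 1110 instead of 2055 in F2i against F, 1513 instead of 2956 in NB2i against F2i, 2430 instead of 4218 in NB2i against F and 2597 instead of 4152 in NB2i against G) and on the log2(FPKM + 1) scale, which understates changes of low genes (304, 726, 1090, 1899 and 1976 in the same order), and it was 730 in F against G on log2(FPKM + 0.1). Counts were lowest for Fas (0 to 39 in a library) and next for Sesn1 (389 to 526), where counting error weighs most.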
